A study of Mus musculus with 66 samples.

Results

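The genes followed here are 10 that encode enzymes of the lysosome, among them 8 cathepsins (Ctsb, Ctsc, Ctsd, Ctsh, Ctsk, Ctsl, Ctss and Ctsz), legumain (Lgmn) and lysosomal acid lipase (Lipa). They were taken by name, and each was read from its brightest probe set among those annotated to that gene alone on the later version of the Affymetrix murine array, called Av2 in the labels. All 10 were present, with 15 probe sets among the 12488 of the array and 10 genes among the 8251 that have a probe set of their own. The tissue was mouse gastrocnemius, a calf muscle, either injected with cardiotoxin, a toxin from snake venom, or untreated. Cardiotoxin kills the fibres and leaves the satellite cells, from which new fibres are built. On Av2 there were 54 arrays, 2 in each of 27 groups. The 26 groups of injected muscle were taken at 12 h and at 1, 2, 3, 3.5, 4, 4.5, 5, 5.5, 6, 6.5, 7, 7.5, 8, 8.5, 9, 9.5, 10, 11, 12, 13, 14, 16, 20, 30 and 40 d, and the remaining group was untreated muscle. The dose, given for 10 of the 66 arrays of the series, was 100 ul of 10 uM cardiotoxin. All of these are of the earlier array version, and no dose is given for an Av2 array. An age of 8 weeks is given for 4 arrays, all untreated. On the earlier array version, called A, 12 arrays held 12 h, 1, 2, 4 and 10 d and untreated muscle, with 2 each. The labels give neither strain nor genotype, and no sham-injected muscle was analysed here, so a change against untreated muscle includes that of the injection itself. Whether paired arrays stem from different mice is not labelled, and in 9 of the 27 Av2 groups their sample codes share a number. The p-values therefore cover only array-to-array spread, which may be technical.

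Lysosomal enzymes break down what a cell takes up or discards. They are made as inactive precursors, sorted to the lysosome by the mannose 6-phosphate tag, and activated in its acid interior. Phagocytes carry large amounts of them and digest dead cells with them, and some cathepsins are also secreted and cut extracellular matrix. Cathepsins B, L, S and K are cysteine proteases that cut within proteins. Cathepsins C, H and Z trim proteins from an end, and cathepsin C also activates the serine proteases stored in the granules of neutrophils and mast cells. Legumain cuts after asparagine and helps to mature other cathepsins, cathepsin D is an aspartic protease, and the acid lipase releases cholesterol and fatty acids from the lipids that arrive in the lysosome.

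The values are deposited intensities on a linear scale, already scaled between arrays. A change is therefore relative to the other RNA on the array, and the amount of RNA in the muscle cannot be read. Each Av2 array had 76.4% to 83.4% of its probe sets above a floor of 64.7, below which values were not distinguished, and all 10 genes lay above it on all 54 arrays. Probe sets differ in brightness for reasons other than the amount of RNA, so levels are compared within a gene and not between genes. The 12 markers of mature fibres that were checked for the labelled tissue summed to 239996 and 300678 on the untreated arrays, where Myh2 alone was at or below the floor on both. A low ratio of the b-actin 3' to the 5' control was found on 8 arrays, with values of 0.0184 to 0.233 against 0.571 to 1.38 on the others. These were 12 h replicate 2, both arrays at 1, 2 and 4 d, and 5 d replicate 1. On 9 other arrays, from 9.5 d onward, the Gapdh 3' probe set was low (0.0439 to 0.162 against 0.314 to 0.97). The part of either in the results was not tested. Counts and highest times that rest on these arrays are also given without them, an alternative chosen after seeing the data. In whole muscle, fewer cells of a type and less RNA per cell cannot be told apart.

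Relative to the other RNA on the array, nearly all of these enzymes had more RNA in injured muscle from the first days to 14 d. Ctsk followed a later course than the rest. Over the whole time course 9 of the 10 genes changed (limma's F test over 26 times against untreated muscle, Benjamini-Hochberg adjusted p between 1.4e-14 for Ctss and 6.0e-08 for Ctsl), where 48.7% of the 11997 probe sets tested did. Ctsd did not pass this F test (adjusted p = 0.0599, unadjusted p = 0.030). With single arrays left out, 9 to 10 genes passed. In limma contrasts of windows of time against untreated muscle, 8 genes were higher at 12 h to 2 d, against 17.7% of all probe sets. The count was 9 at 3 to 4.5 d (22.2% of all probe sets), 9 at 5 to 7.5 d (19.0%), 9 at 8 to 10 d (16.9%) and 9 at 11 to 16 d (13.9%). At 20 to 40 d it was 5 (5.01%). No member was lower in any of the 6 windows, at an adjusted or an unadjusted p under 0.05. The median change over the 10 genes at 3 to 4.5 d was 2.66 on the log2 scale, against 0.0016 over all probe sets. Every window was set against the same 2 untreated arrays.

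**Figure D1:**
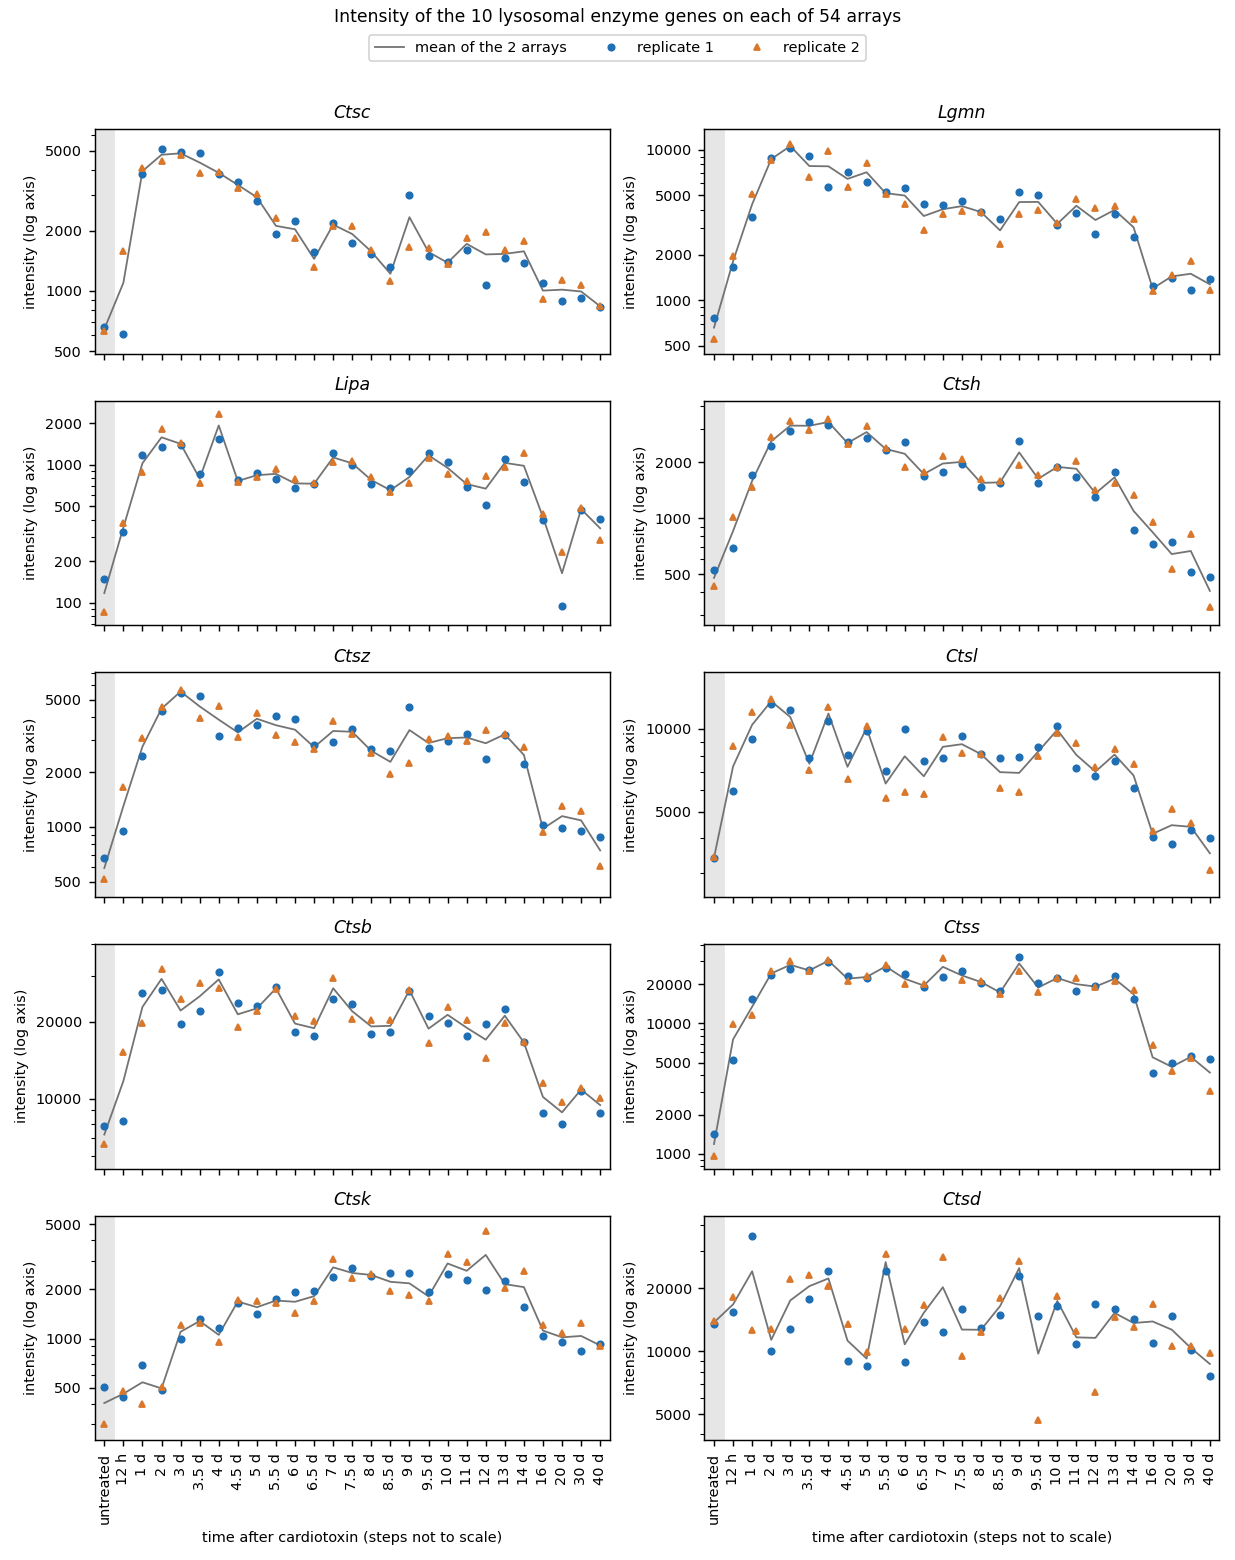
Intensity (log axis) of each of the 10 genes on every Av2 array, untreated muscle at the left (shaded) and then by time after cardiotoxin, with replicate 1 as circles, replicate 2 as triangles and a line through the means of the 2 arrays. Ctsc and Lgmn are highest at 2 to 3 d and decline from there, and Ctss keeps a plateau until 14 d. Ctsk has its highest means at 12 d and 10 d, with 7 d (2731) above 11 d (2601). Ctsd scatters between 4695 and 35615, with no course that passed.

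Ctsc, the dipeptidyl peptidase that activates granule proteases, peaked early. Its intensity was 4960 and 4759 on the 2 arrays at 3 d and 5132 and 4426 at 2 d, against 662 and 629.6 in untreated muscle. At 12 h it was 608 and 1589, so that replicate 1 lay below both untreated arrays. The highest mean, at 3 d, was 4859.7 ± 142 (SD, n = 2), 7.53-fold the untreated mean of 646 ± 22.8, and with any 1 array left out it lay between 2 d and 3.5 d. Ctsc stood at least halfway up its rise only from 1 d to 5 d. Its medians were 3899 over the 8 arrays of 3 to 4.5 d, 2112 over the 12 of 5 to 7.5 d and 1514 over the 10 of 8 to 10 d. The lowest of the 8 arrays at 3 to 4.5 d (3249.7) lay above the highest of the 12 at 5 to 7.5 d (3044). The change against untreated muscle was 2.66 at 3 to 4.5 d (log2, SE 0.23, limma adjusted p = 4.3e-11), and Ctsc passed at single times from 1 d to 14 d. Both other Ctsc probe sets also had their highest mean at 3 d. The brighter of them did not pass in limma at 8 to 10 d (0.59, SE 0.26, adjusted p = 0.088) or 11 to 16 d (0.47, SE 0.26, adjusted p = 0.214). It was at -0.23 at 20 to 40 d, while the dimmer passed at 8 to 10 d (1.95) and 11 to 16 d (1.38).

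Ctsh, an aminopeptidase, and Ctsz, a carboxypeptidase also called cathepsin X, were also highest early, Ctsz at 3 d and Ctsh at 4 d. Ctsh had 3153 and 3425 at 4 d, the time of its highest mean (3289 ± 192), against 525 and 429 in untreated muscle (477 ± 67.9), 6.90-fold. Ctsz had 5422 and 5641 at 3 d, against 673 and 515 in untreated muscle, which is 9.32-fold between the means. All 52 injected arrays but 3 for Ctsh and 1 for Ctsz lay above both untreated arrays. Medians of Ctsh were 3073 at 3 to 4.5 d, 2113 at 5 to 7.5 d and 1661 at 8 to 10 d, and those of Ctsz were 4264, 3328 and 2699 in the same windows. At 3 to 4.5 d the log2 change was 2.67 for Ctsh (SE 0.18, adjusted p = 4.5e-13) and 2.84 for Ctsz (SE 0.22, adjusted p = 4.8e-12). Leaving out 1 array at a time, the highest mean of Ctsh stayed at 3 d to 4 d and that of Ctsz at 3 d. Both arrays at 4 d are low in b-actin 3', and without the low arrays the highest mean of Ctsh was 3147 at 3 d, 6.60-fold untreated.

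Lgmn, the asparaginyl endopeptidase, rose further than any member but Ctss in the fit at 3 to 4.5 d. It had 10204 and 10978 at 3 d, against 765 and 552 in untreated muscle. The mean at 3 d was 10591 ± 547, 16.1-fold the untreated mean of 658 ± 151, and 3 d remained the highest time with any 1 array left out. Like Ctsc it was at least halfway up its rise only until 5 d. From there it kept a lower level, with medians of 4451 at 5 to 7.5 d, 3809 at 8 to 10 d and 3603 at 11 to 16 d. Its log2 change against untreated muscle was 3.60 at 3 to 4.5 d (SE 0.21, adjusted p = 3.0e-14) and 2.52 at 8 to 10 d (SE 0.21, adjusted p = 7.5e-11).

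Lipa, the only lipid hydrolase of the 10, was at 1525 and 2323 at 4 d, against 150 and 86.1 in untreated muscle. The means differ 16.3-fold, but the 2 untreated arrays differ from each other by more than 1.5 times and lie close to the floor. The course was uneven, since the 2 arrays at 3.5 d had 853 and 739 and those at 4.5 d had 770 and 755, below both arrays at 2, 3 and 4 d. Both arrays at 2 d and at 4 d are low in b-actin 3', and none at 3, 3.5 and 4.5 d is. Without the low arrays the highest mean was 1417 at 3 d, 12.0-fold untreated, and their part in the uneven course was not tested. With 1 array left out the highest mean lay between 2 d and 4 d. The log2 change was 3.31 at 3 to 4.5 d (SE 0.23, adjusted p = 9.8e-13), and Lipa passed at every time point but 20 d.

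Ctsl, an endopeptidase that is also secreted, was highest at 2 d, with 12374 and 12854, against 3395 and 3413 in untreated muscle (3.71-fold). It was at 5925 and 8696 at 12 h, above both untreated arrays. The rise was then held for days, with medians of 9199.6 at 3 to 4.5 d, 8026 at 5 to 7.5 d, 8017 at 8 to 10 d and 7240.5 at 11 to 16 d. Within these windows the course was uneven. Ctsl had 7858 and 7090 at 3.5 d, 10711 and 12054 at 4 d, 8017 and 6551 at 4.5 d, and 9862 and 10291 at 5 d. Both arrays at 4 d and 1 at 5 d are low in b-actin 3', and their part in this was not tested. The log2 change was 1.52 at 12 h to 2 d (SE 0.18, adjusted p = 3.4e-08) and 1.41 at 3 to 4.5 d (SE 0.17, adjusted p = 4.7e-08), the smallest among the 9 genes that passed in the second of these windows. No other member had 2 d as its highest time under each array left out. Both arrays at 2 d are low in b-actin 3', and without the low arrays the highest mean was 11056 at 3 d (3.25-fold).

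Ctsb, a widely expressed cysteine cathepsin, had 26562 and 32088 at 2 d, against 7820 and 6677 in untreated muscle (4.05-fold). All 52 injected arrays lay above both untreated arrays. From 1 d to 14 d its arrays ranged between 14363 and 32088. The time of the highest mean ranged over 2 d to 7 d with 1 array left out, so that no single peak was resolved on this probe set. Without the arrays low in b-actin 3', which include both at 2 d, the highest mean was 26958 at 7 d (3.72-fold). Its log2 change was 1.74 at 3 to 4.5 d (SE 0.17, adjusted p = 9.1e-10) and 1.52 at 8 to 10 d (SE 0.17, adjusted p = 2.0e-08). The other Ctsb probe sets had their highest means at 3 d, 3 d and 4 d. Those 2 above the floor on all 54 arrays changed by 1.92 and 2.29 at 3 to 4.5 d, and by 0.87 and 1.42 at 8 to 10 d. The remaining probe set lay above the floor on 27 arrays.

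Ctss, which stays active at neutral pH and trims the invariant chain of class II molecules in antigen-presenting cells, rose most. It had 29748 and 30733 at 4 d, against 1415 and 963 in untreated muscle. The mean at 4 d was 30240.2 ± 696, 25.4-fold the untreated 1189 ± 320. It was already at 5285 and 9815 at 12 h, above both untreated arrays, and all 52 injected arrays lay above them. Medians were 25785 at 3 to 4.5 d, 22968 at 5 to 7.5 d, 20828 at 8 to 10 d and 18576 at 11 to 16 d. The level therefore formed a plateau, and its highest mean moved between 4 d and 9 d with 1 array left out. Without the arrays low in b-actin 3', which include both at 4 d, it was 28823 at 9 d (24.2-fold). The log2 change was 4.49 at 3 to 4.5 d (SE 0.20, adjusted p = 4.4e-17) and 4.18 at 8 to 10 d (SE 0.19, adjusted p = 5.4e-16), and Ctss passed at all 26 time points.

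Ctsk, the collagen-cutting cathepsin best known from osteoclasts, which resorb bone, was the late member. At 1 d it stood at 687 and 396 and at 2 d at 489 and 505, against 509 and 299.7 in untreated muscle, so the groups overlapped. The change at 12 h to 2 d was 0.33 (log2, SE 0.24, adjusted p = 0.323). At 3 d it had 997 and 1209, the first time it passed, and its medians were 1224 at 3 to 4.5 d, 1845 at 5 to 7.5 d, 2447 at 8 to 10 d and 2156 at 11 to 16 d. The highest mean, at 12 d (3254 ± 1796), rested on 1984 and 4524, which differ 2.28-fold. The next highest was at 10 d (2477 and 3291), and with single arrays left out the highest time was between 10 d and 12 d. The higher array at 12 d is low in Gapdh 3'. Without the arrays low in Gapdh 3' the highest time was 11 d, at 2926 on 1 array (7.23-fold untreated). Ctsk was at least halfway up its rise at 10 times between 7 d and 14 d, all of those but 9.5 d. The log2 change was 2.54 at 8 to 10 d (SE 0.23, adjusted p = 4.5e-10) and 2.40 at 11 to 16 d (SE 0.23, adjusted p = 2.6e-09).

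Ctsd, the aspartic protease, had no course that passed. Its 2 untreated arrays, 13575 and 13912, lay inside the range of the injected arrays, which ran between 4695 and 35615, and 26 of the 52 injected arrays lay above both of them. Its change was between 0.31 (log2, SE 0.36) at 3 to 4.5 d and -0.40 (SE 0.37) at 20 to 40 d, and it passed at none of the 26 time points. The spread within groups was the largest of the 10 genes, 0.47 log2 against 0.21 to 0.30 for the others. Arrays of a group differed most at 9.5 d, 14789 and 4695, and the low array there and that at 12 d (6368) are both among the 9 low in the Gapdh 3' probe set. Over the 27 groups, the difference between the 2 arrays in Ctsd went with that in the manufacturer's Gapdh middle probe set (r = 0.61, rho = 0.75, a description), against r between -0.36 and 0.44 for the other 9 genes.

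**Figure D2:**
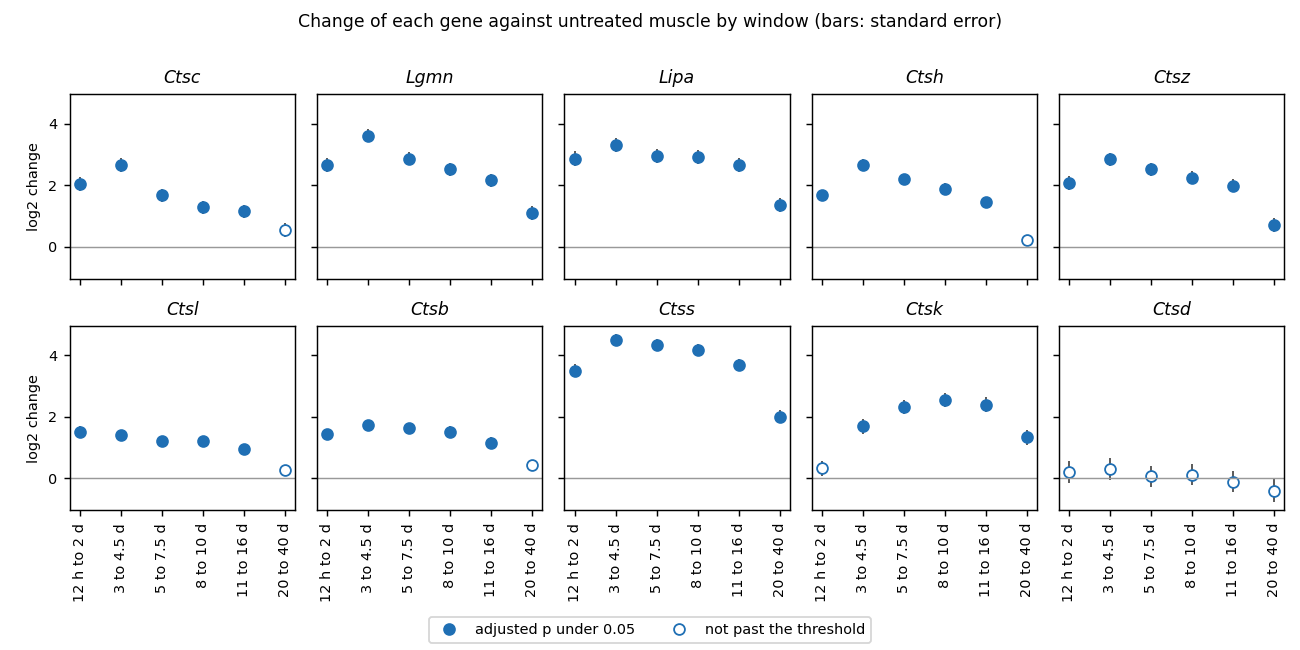
Log2 change of each gene against the 2 untreated arrays in 6 windows of time after cardiotoxin, with bars for limma's standard error, filled points past the adjusted threshold and open points not past it. Among the genes with filled points, the highest window is 3 to 4.5 d for 7, for Ctsl it is 12 h to 2 d and for Ctsk 8 to 10 d, while Ctsd is open throughout.

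To separate early from late enzymes without the untreated arrays, the mean of 5 to 10 d (22 arrays) was set against that of 1 to 4.5 d (12 arrays) in the same limma fit. Ctsk was the only gene higher at the later times, by 1.17 log2 (SE 0.11, adjusted p = 3.0e-10), where 17.2% of all probe sets were. Lower were 6 genes, where 19.0% of all probe sets were. Ctsc fell most, by 1.20 (SE 0.10, adjusted p = 6.0e-11), which is 2.30-fold, then Lgmn by 0.78 (SE 0.10, adjusted p = 1.0e-07). The other falls were smaller, 0.44 for Lipa (SE 0.11), 0.43 for Ctsh (SE 0.08), 0.36 for Ctsz (SE 0.10) and 0.31 for Ctsl (SE 0.08), with adjusted p between 9.3e-05 and 0.0038. Ctsb (-0.18, SE 0.08, adjusted p = 0.069), Ctsd (-0.17, SE 0.16, adjusted p = 0.471) and Ctss (-0.05, SE 0.09, adjusted p = 0.741) did not pass. For Ctss, single arrays left out gave -0.08 to -0.01. For Ctsb the call depends on the probe set and on the processing. Its other 3 probe sets were lower by 0.28, 0.49 and 0.85 and passed, the last above the floor on 27 arrays only. The brightest passed as lower under quantile normalization (-0.24), median scaling (-0.20) and with 8 to 10 d alone as the later times (-0.25). It also passed in 6 of the fits that left out 1 array. Without the 8 arrays low in b-actin 3', Ctsl (-0.09) and Lipa (-0.14) no longer passed and Ctsk was 0.66 higher, still past the threshold. With 12 h counted among the early times only Ctsc, Lgmn and Ctsl stayed lower. With 3 to 4.5 d alone as the early times Ctsl no longer passed (-0.20, SE 0.09, limma adjusted p = 0.103). Leaving out any single array ended none of the 7 calls.

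**Figure D3:**
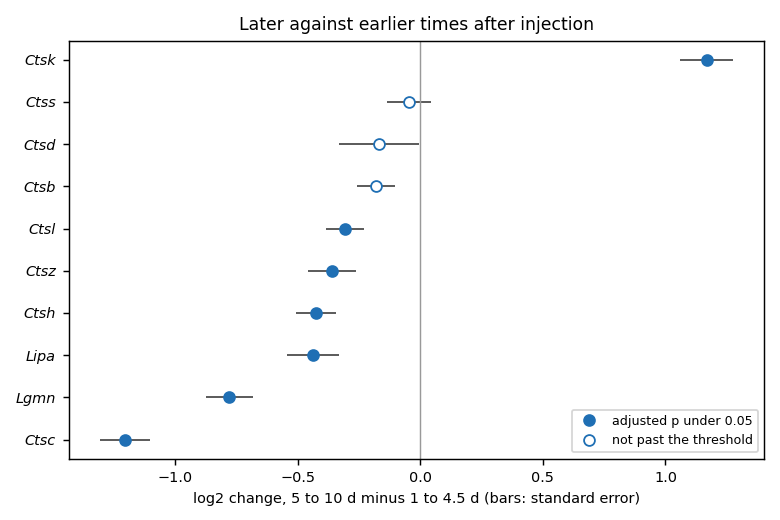
Log2 change of each gene at 5 to 10 d minus 1 to 4.5 d, with bars for limma's standard error and filled points for an adjusted p under 0.05. Ctsk lies alone on the right at 1.17 and Ctsc and Lgmn lie furthest left at -1.20 and -0.78.

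Neighbouring windows showed when each gene moved. At 3 to 4.5 d, 8 genes stood higher than at 12 h to 2 d (16.9% of all probe sets did), all but Ctsd and Ctsl, with Ctsk (1.35, SE 0.16) and Ctsh (1.00, SE 0.12) changing most. The count lay between 6 and 8 with single arrays left out. It was 8 without the arrays low in b-actin 3', where 12 h replicate 1 alone stood for 12 h to 2 d. At 5 to 7.5 d, Ctsk was higher again (0.63, SE 0.14, adjusted p = 9.1e-04), as were 9.16% of all probe sets. In the same step 4 genes were lower, where 12.0% of all were, namely Ctsc (-0.99, SE 0.13), Lgmn (-0.75, SE 0.12), Ctsh (-0.48, SE 0.10) and Lipa (-0.37, SE 0.13, adjusted p = 0.0491). Between 5 to 7.5 d and 8 to 10 d no gene passed in limma in either direction, where 1.03% of all probe sets were higher and 1.42% lower. At an unadjusted p under 0.05, 4 genes were lower and 0 higher in that step. Leaving out 12 h replicate 1, 12 h replicate 2 or 9 d replicate 1 gave 1 lower gene.

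The level fell after 14 d. Ctss had 4144 and 6852 at 16 d, against 15367 and 18120 at 14 d, and Lgmn had 1241 and 1156, against 2631 and 3480. In the planned windows, 3 genes (Ctsb, Ctsh and Ctss) were lower at 11 to 16 d than at 8 to 10 d, where 3.36% of all probe sets were. Then 9 were lower at 20 to 40 d than at 11 to 16 d, where 11.3% were. With 16 d moved to the last window, an edge chosen after seeing the data, the first count was 0. In that setting all genes but Ctsd were lower at 16 to 40 d than at 11 to 14 d, where 13.5% of all probe sets were. The fall was 2.00 log2 for Ctss (SE 0.12), 1.58 for Ctsz (SE 0.14), 1.43 for Lgmn (SE 0.13), 1.38 for Lipa (SE 0.15) and 1.24 for Ctsk (SE 0.15). Between the 2 single times, 16 d minus 14 d, Ctss, Ctsz, Lgmn and Lipa passed (adjusted p between 4.0e-04 and 0.0348), where 1.08% of all probe sets were lower. Without the 9 arrays low in Gapdh 3', 9 genes were still lower at 16 to 40 d than at 11 to 14 d, Ctss by 2.05 (SE 0.17), and 8 at 20 to 40 d than at 11 to 16 d. In that setting 16 d and 14 d held 1 array each, and no gene passed between these 2 times in limma (lowest adjusted p = 0.11, for Ctss), while 4 were lower and 0 higher at an unadjusted p under 0.05. For 7 genes every one of the 8 arrays at 16 to 40 d lay below every one of the 8 at 11 to 14 d, as 4.37% of all probe sets did. At each of 11, 12, 13 and 14 d the 2 arrays share a code number, and at 16, 20, 30 and 40 d they do not. The 8 earlier arrays may thus not stem from 8 mice, and the part of this in the step was not tested. Ctsc, Ctsd and Ctsh overlapped between these times.

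What remained at the end rests largely on 1 untreated array. At 40 d Ctss had 5351 and 3047, against 1415 and 963 in untreated muscle, and Ctsk had 922 and 899, against 509 and 299.7. At 20 to 40 d, the log2 change was 2.01 for Ctss (SE 0.20, adjusted p = 1.6e-07), 1.35 for Lipa (SE 0.24), 1.33 for Ctsk (SE 0.24), 1.10 for Lgmn (SE 0.22) and 0.71 for Ctsz (SE 0.22, adjusted p = 0.0497). Without untreated replicate 2, the lower of the 2 untreated arrays for each of the 5, only Ctss passed, and the adjusted p was 0.084 for Lipa, 0.093 for Ctsk and 0.104 for Lgmn. The call of Ctsz was lost in 39 of the 54 fits that left out 1 array. Without the arrays low in Gapdh 3', Lipa and Ctsz no longer passed and 3 genes did. Over single times, 211 of 260 tests of a gene at a time passed, and 196 did without untreated replicate 2. At 12 h, 7 genes were higher (10.5% of all probe sets), all but Ctsc, Ctsd and Ctsk. At 14 d the count was 9 (9.66%), at 16 d 5 (4.91%) and at 40 d 4 (3.06%), the last being Ctsk, Ctss, Lgmn and Lipa.

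The early window rests on arrays that stood apart in the b-actin probe sets. Of the 6 arrays at 12 h to 2 d, 5 were low in b-actin 3', and without them 12 h replicate 1 alone stood for the window. On that array 4 genes were still higher in the fit, Ctss by 2.18, Lipa by 1.52, Lgmn by 1.36 and Ctsl by 0.80 (log2). Ctsb (0.18), Ctsh (0.55) and Ctsz (0.69) no longer passed, and Ctsc was at -0.09. At 12 h replicate 2, low in b-actin 3', was the higher of the 2 arrays for all 10 genes. Several marker lists also summed higher on it than on replicate 1, with 101646 against 46058 for macrophages, 48147 against 12240 for dendritic cells and class II presentation, and 9779 against 1864 for lymphocytes, while fibroblast markers summed to 65621 against 72217. Their part in the calls at 12 h was not tested. At 3 to 4.5 d the same 9 genes passed without the low arrays.

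Cell type markers moved beside these courses. The summed intensity of 23 macrophage markers on an array was 108842 to 177524 at 3 to 4.5 d, 83496 to 126399 at 5 to 7.5 d and 20154 to 31698 at 20 to 40 d, against 12551 to 17065 in untreated muscle. At 3 to 4.5 d, 20 of the 23 were higher and 0 lower, where 22.2% of all probe sets were higher and 18.5% lower. From early to late, 16 were lower and 1 higher (median -0.48 log2, against 0.02 over all probe sets), where 19.0% of all probe sets were lower and 17.2% higher. Among them Ccr2, the receptor of inflammatory monocytes, fell by 1.89 (SE 0.14), and Mrc1, the mannose receptor, by 1.45 (SE 0.13). Over the 27 groups the mean log2 level of 8 genes went with that of the macrophage list (r between 0.88 for Lipa and 0.97 for Lgmn, rho between 0.77 and 0.97). For Ctsk r was 0.27 (rho 0.06) and for Ctsd 0.35 (rho 0.34). These are descriptions over group means that share their arrays and their scaling.

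Fibroblast markers, 11 genes of matrix-making cells, took a later course. Their summed intensity was 98073 to 133230 at 3 to 4.5 d, 116763 to 196657 at 5 to 7.5 d and 112950 to 222901 at 8 to 10 d, against 67876 to 93293 in untreated muscle. From early to late 8 were higher and 0 lower (median 0.71), where 17.2% of all probe sets were higher and 19.0% lower, led by Postn, the matrix protein periostin (1.73, SE 0.13), and Lum, the collagen-binding lumican (1.58, SE 0.08). Ctsk went with this list (r = 0.91, rho = 0.88) and with 11 genes of dendritic cells and class II presentation (r = 0.90, rho = 0.86). Of the 7 osteoclast markers that could be read, 1 was higher (Acp5, 0.49, SE 0.17) and 2 were lower (Mmp9, -1.50, SE 0.35, and Tnfrsf11a, -0.55, SE 0.12) at the later times, counts near the same background shares of 17.2% and 19.0%. Calcr, the calcitonin receptor that marks osteoclasts, was at or below the floor on all arrays from 12 h to 10 d and on both untreated arrays. Summed neutrophil markers reached 24272 to 76625 at 12 h to 2 d and were 4657 to 7449 at 3 to 4.5 d, against 3347 to 3837 in untreated muscle. The part of any cell type in the course of an enzyme was not tested.

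**Figure D4:**
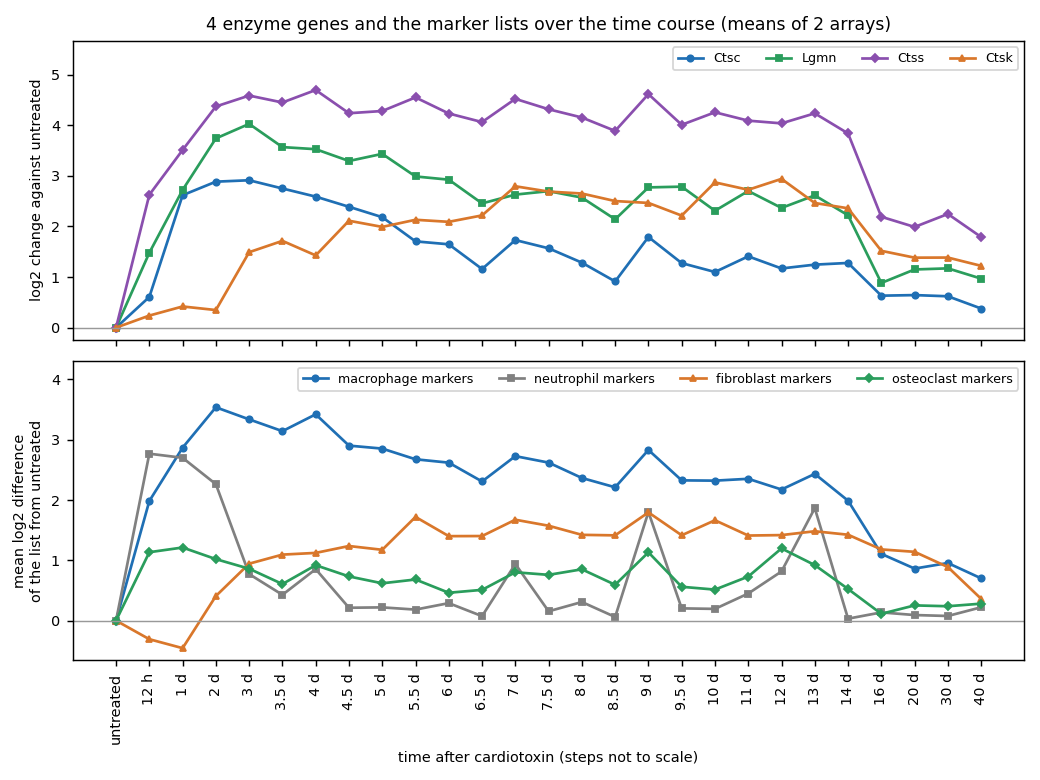
Upper panel, log2 change of Ctsc, Lgmn, Ctss and Ctsk against untreated muscle at each time, as means of 2 arrays; lower panel, mean log2 difference of the macrophage, neutrophil, fibroblast and osteoclast marker lists from untreated muscle at the same times. The macrophage list is highest at 2 to 4 d and lower from 16 d on than at 1 to 14 d, Ctsc and Lgmn are highest at 2 to 3 d, Ctss is lower from 16 d on than at 1 to 14 d, and the fibroblast list and Ctsk are both higher at 5 to 14 d than at 1 d.

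Among themselves, 8 of the genes had similar courses over the 27 group means, with Ctsz and Lgmn most alike (r = 0.97). Ctsk correlated with Ctsc at 0.01 and with Lgmn at 0.30, and most with Ctss (0.60). Ctsd reached at most 0.42, with Ctsb. Of 8077 other genes, those most like Ctss were Sirpa, an inhibitory receptor of myeloid cells (r = 0.98), and Mpeg1, a pore-forming protein of macrophages (0.97). Lgmn was most like Cd68, a membrane protein of macrophage lysosomes (0.97), Ctsz was most like P2rx4, an ATP-gated channel (0.98), and Ctsb was most like Lyz2, the macrophage lysozyme (0.97), with the lysosomal mannosidase Man2b1 next (0.97). Ctsc was most like Snx6 (0.97) and Mrc1 (0.97), Ctsh like Mydgf and Cks2 (0.97 each), Ctsl like the actin-capping Capg (0.95) and S100a10 (0.95), and Lipa like Sh3gl1 and Hsd17b11 (0.92 each). Ctsk was most like Mfap2, a protein of elastic microfibrils (0.95), and Meg3, an imprinted non-coding RNA (0.95). Ctsd had no close match, with Eef1a1 (0.81) and Jund (0.79) first.

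The rest of the lysosome rose in part with them. The counts that follow at 3 to 4.5 d stand beside 22.2% of all probe sets higher and 18.5% lower, and those from early to late beside 17.2% higher and 19.0% lower. Of 4 further cathepsins with a probe set tested, Ctsa, the protective protein of lysosomal galactosidase, was higher at 3 to 4.5 d (1.83, SE 0.11) and Ctse, an aspartic protease, too (1.52, SE 0.35). Ctsf, a cysteine cathepsin, was lower at 12 h to 2 d (-1.66, SE 0.20). It was also lower at 3 to 4.5 d (-0.77, SE 0.19) and higher from early to late (1.40, SE 0.09). Ctsg, a serine protease of neutrophil granules, did not pass at 3 to 4.5 d (0.05, SE 0.21). Of 30 other lysosomal hydrolases and their cofactors, 17 were higher and 4 lower at 3 to 4.5 d (median 0.97). Largest were Ifi30, a thiol reductase of antigen processing (30.4-fold), Glb1, beta-galactosidase (8.02-fold), Gusb, beta-glucuronidase (7.81-fold), and Arsa, arylsulfatase A (7.67-fold), with log2 standard errors of 0.18 to 0.29. Of 27 genes of the lysosomal membrane and its proton pump, 16 were higher and 3 lower (median 0.61), led by Laptm5 (4.06, SE 0.23) and Cd68 (3.83, SE 0.21), and 15 were lower and 2 higher from early to late. Of 17 sorting genes, 9 were higher and 2 lower, with Grn, the lysosomal progranulin, highest (3.07, SE 0.16). Among 21 regulators of lysosomes and autophagy the order was turned, with 3 higher and 8 lower (median -0.33), among them Bnip3 (-2.05, SE 0.25) and Map1lc3a (-1.89, SE 0.18), both of the autophagy machinery, and Tfeb, the transcription factor of lysosomal genes (-1.71, SE 0.42, adjusted p = 0.0013).

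Of 11 protease inhibitors tested, 3 were higher and 2 lower at 3 to 4.5 d (median 0.12). These counts are near the background of 22.2% higher and 18.5% lower. The list holds cystatins and other inhibitors of cysteine proteases, but also Spint1, Spint2, Serpinb1a and Serpinb6a, which inhibit serine proteases. Spint2 was among the lower (-1.37, SE 0.42), so the counts do not describe inhibitors of cysteine proteases alone. Cstb, the cytosolic cystatin B, was higher by 3.04 (SE 0.16, adjusted p = 2.1e-15) and Ctla2b by 2.41 (SE 0.26), while Cst3, the secreted cystatin C, was lower by 0.91 (log2 change -0.91, SE 0.16). From early to late Cstb fell by 0.76 (SE 0.07) and Ctla2b by 1.20 (SE 0.12).

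The earlier array version gave the same measure at 5 times, with the same sample codes as Av2 at 12 h and in untreated muscle, so these arrays may not be separate samples. There the floor was 727, and Ctsk's probe set, another than on Av2, was listed at 0 on all 12 arrays, so 9 genes were tested. As many as 2611 of the 12654 probe sets of A were listed at 0 throughout, so Ctsk cannot be read on A. Higher in limma were 4 of them at 12 h (8.90% of the 4459 probe sets tested), 7 at 1 d (19.9%), 7 at 2 d (23.9%), 8 at 4 d (22.8%) and 6 at 10 d (13.3%). Ctss had 22984 and 25899 at 4 d, against 1264 and 800.3 in untreated muscle. Its log2 change was 4.60 at 4 d (SE 0.31), and 4.69 (SE 0.25) on Av2. Ctsl changed by 1.52 (SE 0.14) on A and 1.74 (SE 0.22) on Av2 at the same time, and Ctsd by 0.76 (SE 0.38) and 0.69 (SE 0.45). Further apart at 4 d were Ctsc, with 3.35 (SE 0.37) on A and 2.59 (SE 0.28) on Av2, and Ctsb, with 1.48 (SE 0.37) and 2.01 (SE 0.22). At 2 d Ctsd was at 0.65 (SE 0.38) on A and -0.29 (SE 0.45) on Av2. The untreated arrays of Ctsh, Ctsz and Lipa lay at or below the floor on A, as did 1 of Lgmn, so their changes there are lower bounds where the injected arrays lie above the floor. That held for both arrays of these 4 genes at every time from 2 d on. At 12 h both Lipa arrays and 1 of Ctsh, and at 1 d 1 of Lipa, were also below the floor, so no change of Lipa can be read at 12 h. Lipa's 1.19 at 4 d on A stands beside 4.05 on Av2. Ctsc was 1.69 higher at 4 d than at 10 d (SE 0.37, adjusted p = 0.0267) and Ctsh 1.07 (SE 0.28, adjusted p = 0.0483), 2 genes where 6.26% of the probe sets passed. These calls are fragile, since leaving out any single A array changed that count, to between 0 and 4. The count at 12 h lay between 2 and 6, with 2 without either untreated array or without 12 h replicate 2.

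**Figure D5:**
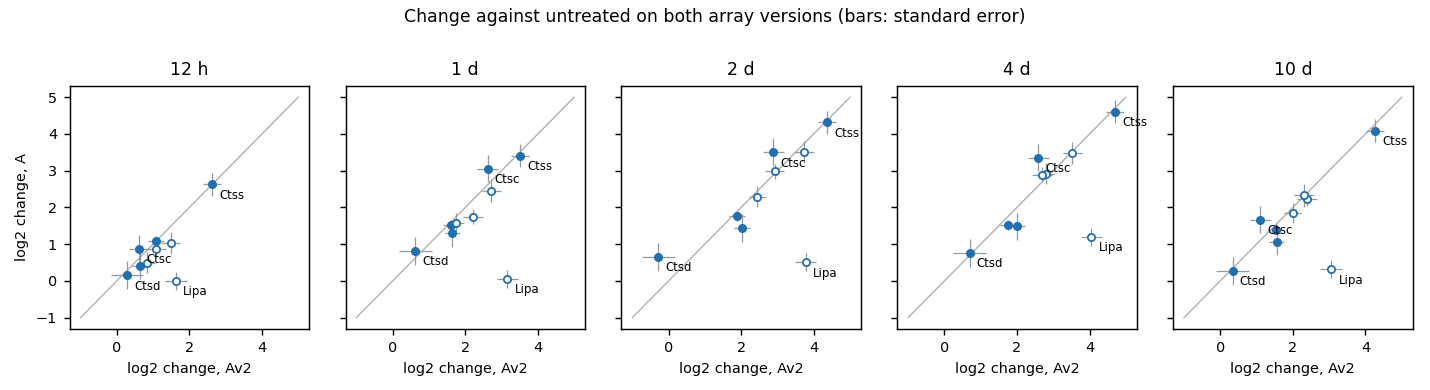
Log2 change against untreated muscle on version A against that on version Av2 for 9 genes at 5 times, with bars for limma's standard errors, a line of equal change, and open points for genes with an untreated A array at or below the floor. Most points lie near the line, Ctss at the top right at each time and Ctsd at the lower left, while Lipa, whose A arrays lie near or below the floor at 12 h to 2 d, lies far below it.

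Ctsk and Ctss are neighbouring protein-coding genes on mouse chromosome 3, and Ctss passed at 12 h while Ctsk first passed at 3 d. Their promoters are shown for that contrast, with those of Ctsc, which peaked early, and Ctsd, which did not pass. The sequences are RefSeq's, build GRCm38.p6, from 250 bases before to 50 bases after the annotated start, which 8 of the 10 genes have in the table used. Capitals mark matches, on either strand, to CACGTG (an E-box, the core of the element read by the lysosomal regulator TFEB), GAAANNGAA (part of an interferon response element) and AGGAAGT (an ETS site as read by the myeloid factor PU.1). TGANTCA (an AP-1 site) was searched too and is in none of them. No match overlaps another.
Ctsk (chr3:95498960-95499259, plus strand): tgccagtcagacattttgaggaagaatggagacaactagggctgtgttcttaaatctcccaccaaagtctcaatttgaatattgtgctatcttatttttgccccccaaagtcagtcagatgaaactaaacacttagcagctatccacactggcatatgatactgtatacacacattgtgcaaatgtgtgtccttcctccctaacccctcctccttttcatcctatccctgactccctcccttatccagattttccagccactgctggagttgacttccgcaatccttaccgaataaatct
Ctss (chr3:95526536-95526835, plus strand): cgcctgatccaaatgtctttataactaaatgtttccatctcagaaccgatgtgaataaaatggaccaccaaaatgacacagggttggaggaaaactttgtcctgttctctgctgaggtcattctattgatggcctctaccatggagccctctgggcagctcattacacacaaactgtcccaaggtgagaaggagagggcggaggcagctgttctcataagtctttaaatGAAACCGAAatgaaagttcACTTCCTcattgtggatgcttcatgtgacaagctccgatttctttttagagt
Ctsc (chr7:88277835-88278134, plus strand): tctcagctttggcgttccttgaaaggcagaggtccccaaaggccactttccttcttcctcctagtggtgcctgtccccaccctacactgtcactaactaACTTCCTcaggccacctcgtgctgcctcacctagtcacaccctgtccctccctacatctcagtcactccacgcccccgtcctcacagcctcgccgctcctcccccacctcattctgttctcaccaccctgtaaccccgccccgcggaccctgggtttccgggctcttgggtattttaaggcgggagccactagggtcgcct
Ctsd (chr7:142387778-142388077, minus strand): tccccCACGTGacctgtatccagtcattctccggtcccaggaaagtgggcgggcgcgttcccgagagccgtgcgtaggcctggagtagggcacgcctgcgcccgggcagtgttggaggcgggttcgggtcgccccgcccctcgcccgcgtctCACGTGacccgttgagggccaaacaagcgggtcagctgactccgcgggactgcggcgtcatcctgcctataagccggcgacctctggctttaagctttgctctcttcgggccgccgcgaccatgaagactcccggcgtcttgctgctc

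The window of Ctss holds GAAACCGAA, which starts 21 bases before the annotated start, and ACTTCCT, the ETS letters on the other strand, which starts 2 bases before it. Ctsc holds ACTTCCT 151 bases before its start. Ctsd holds CACGTG at 245 and at 98 bases before its start, and neither it nor Ctsk holds any other of the 4. Among all members, CACGTG is also in the window of Ctsl and in 1 of the 2 of Lgmn. Of 32851 promoters of this length, 7.15% hold CACGTG, 8.56% GAAANNGAA, 9.35% AGGAAGT and 7.81% TGANTCA. A match describes letters only.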

How the data were processed

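The deposited values are intensity per probe set on a linear scale, 1 file per array version. Unit, software and build were not given in the labels or headers. Every Av2 array had a 2% trimmed mean within 0.0108% of 800.5, and every A array one within 0.337% of 600.3, so the deposited intensities were taken as already scaled and were used as they stand. Values were raised to a floor, 64.7 on Av2 (the median of the arrays' 20th percentiles) and 727 on A (2 times the root mean square of values below 0), and put on the log2 scale. After this, 11997 on Av2 and 4459 on A with at least 2 arrays above the floor were tested. Gene symbols came from the platform annotation, set against RefSeq's gene table: 10833 Av2 probe sets had 1 symbol, 396 several and 1193 none.

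limma 3.58.1 in R 4.3.3 was fitted with 1 mean per group, separately for each version, and p-values were adjusted by Benjamini-Hochberg over all probe sets of a contrast, with 0.05 as the threshold. In a window each time point has the same weight. The fit was tested on simulated data, with 50 probe sets changed at each size. At 3 to 4.5 d against untreated it called 30% of 1.5-fold, 48% of 2-fold, 88% of 4-fold and 96% of 8-fold changes. From early to late it called 76% of 1.5-fold and 96% of 2-fold changes. In the data, 2664 probe sets were called higher and 2222 lower at 3 to 4.5 d, many more than were changed in the simulation. The adjusted threshold depends on that number, so the shares called may differ in the data. Small changes against the untreated arrays may be missed. Every gene was read from its brightest probe set. All 10 genes are named, with up to 4 genes per list by size of change and the 2 genes most alike per member by Pearson r. The members and lists were chosen with earlier results of these data known. Alternatives covered scaling, floor, filter, variance trend, probe set choice, blocks, window edges and each array left out. The fits and highest times without arrays low in the b-actin or Gapdh 3' probe sets and with 16 d moved, and 16 d against 14 d, were chosen after seeing the data. The number of arrays limits the precision.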

Additional observations from a re-analysis of the deposited data

Results flagged for a closer look

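In 50 combinations of a gene and a window of 6 to 10 arrays, 4 had an array far from the others by Dixon's test on log2 values. Chance gives about 1 in 20, so this number is near what chance gives. At 8 to 10 d, 9 d replicate 1 was the highest array for Ctsc, at 3009 with the next at 1659, and for Ctsh, at 2588 with the next at 1928. On the same array the summed neutrophil markers were 33838 and the macrophage markers 139449, the highest of that window. For Ctsd the lowest arrays stood apart, 9.5 d replicate 2 at 4695 with the next at 12398, and 12 d replicate 2 at 6368 with the next at 10878. Both are among the arrays low in the Gapdh 3' probe set.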

How the results depend on the processing

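Across the alternatives on Av2, counts of members called kept within 1.5 times of those reported except as follows. With the time points whose arrays share a code number left out, 128 calls at single times remained, 4 genes were higher at 11 to 16 d, 8 were lower there than at 8 to 10 d and 0 lower at 20 to 40 d than at 11 to 16 d; by construction only 16 d then stands for 11 to 16 d. Set against 30 and 40 d in place of untreated muscle, 1 gene, Ctsk, was lower at 12 h to 2 d (-0.97 log2). In that fit Ctsk no longer passed at 3 to 4.5 d (0.38, SE 0.18, limma adjusted p = 0.095). Ctsd passed there as higher at 12 h to 2 d (0.75, SE 0.29, adjusted p = 0.042) and 3 to 4.5 d (0.85, SE 0.28, adjusted p = 0.013). With 12 h among the early times 3 genes were lower from early to late, and Ctss was at 0.19. Without the b-actin arrays 4 genes were higher at 12 h to 2 d, with Ctsc at -0.086, and 2 were lower at 8 to 10 d than at 5 to 7.5 d. Without the Gapdh arrays 3 were higher at 20 to 40 d and 1 was lower at 11 to 16 d than at 8 to 10 d, a count that was 0 with 16 d moved. Also without the Gapdh arrays, 0 genes were lower at 16 d than at 14 d. The cause was not tested.

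On A, the count at 12 h was 2 with the floor at 2 times and 2 without the filter. The count at 4 d against 10 d was 1 with the floor at 0.5 times, 4 at 2 times, 0 without the filter and 1 with a variance trend. Leaving out single arrays gave 2 to 6 and 0 to 4 for these counts. On Av2 the same gave 1 to 5 genes higher at 20 to 40 d and 0 to 1 lower at 8 to 10 d than at 5 to 7.5 d.

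Ctsd, which never passed against untreated muscle, changed sign in several fits. It was at 0.066 at 11 to 16 d under quantile normalization, -0.082 at 5 to 7.5 d and -0.038 at 8 to 10 d under median scaling, and -0.0031 at 12 h to 2 d without the shared-code times. At 11 to 16 d it was at 0.43 against 30 and 40 d and 0.13 without the Gapdh arrays. With single arrays left out it ranged from -0.04 to 0.46 at 12 h to 2 d, -0.03 to 0.17 at 5 to 7.5 d, -0.04 to 0.29 at 8 to 10 d and -0.25 to 0.03 at 11 to 16 d, and Ctsk at 12 h to 2 d ranged from -0.05 to 0.72. With the number in the sample code as a replicate block, 9 genes passed the F test, 211 calls were made at single times, 4 genes were higher at 20 to 40 d (Ctsz lost its call) and 7 were lower from early to late (Ctsb gained one). The block moved no other count by over 1.5 times, and the labels do not say that the number pairs arrays.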
